A study of Mus musculus with 8 samples.

Results

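In regulatory T cells (Tregs) of the spleen, a pair of genes for parts of the motile cilium stood among the largest differences between IL-2 and control libraries: the axonemal dynein heavy chain Dnah7a and the dynein regulatory complex subunit Drc1. The set described here is those 2 genes with 6 relatives, the heavy chains Dnah7b, Dnah7c, Dnah2 and Dnah8 and the complex subunits Drc3 and Drc7, 8 of the 21524 genes in the table, matched by symbol. All 8 were found. The set was drawn up because Dnah7a and Drc1 differed in this comparison, so the levels of the 8 members in these libraries chose them, and they are given as a description without a test. The question the set raises is whether the difference is confined to those genes or extends to other parts of a cilium.

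RNA came from flow-sorted Tregs, CD4 T cells defined by the transcription factor Foxp3 that hold other immune cells in check, taken from mouse spleen. The labels named 2 treatments, IL-2 (4 libraries, 41 to 44) and control (4 libraries, 45 to 48). Tregs survive on the cytokine IL-2. The text accompanying the series describes transplanted hearts and kidneys between mismatched BALB/c and C57BL/6 mice, an engineered IL-2 (mIL-2) and the co-stimulation blocker CTLA-4 Ig, and Treg-specific ST2 knockout mice. The labels leave out whether that engineered form was the IL-2 given, what the controls received, whether either group carried a graft or was given CTLA-4 Ig, or the strain and age of the donors of the cells. Nothing stated that each library was a separate animal, so the tests below measure the spread between libraries, which may be technical in part.

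The axoneme is the microtubule core of a motile cilium or sperm tail. Dynein arms, built on very large heavy chains that hydrolyse ATP, slide neighbouring microtubule doublets, and the nexin-dynein regulatory complex links the doublets and turns sliding into bending. Dnah7a, Dnah7b and Dnah7c encode inner-arm heavy chains, Dnah2 encodes another inner-arm heavy chain, and Dnah8 encodes an outer-arm heavy chain best known from sperm. Drc1 is a scaffold subunit of the regulatory complex, and Drc3 and Drc7 are further subunits. In cells that build motile cilia these genes are switched on together with many others under Foxj1 and the RFX factors. Lymphocytes are generally described as lacking a cilium.

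The promoters of Dnah7a, Dnah7b, Dnah7c and Drc1 are shown, because the 3 Dnah7 genes have close sequences and unlike levels, and because Dnah7a and Drc1 differed between the groups in the same direction. Each is the RefSeq window from 250 bases before to 50 after the annotated start in GRCm38.p6, written on the strand of the gene. In the Dnah7 promoters the capitals mark the longest run that all 3 share, 29 bases, which was found in 3 of the 32851 promoters in the table and starts 64 bases before the start of Dnah7a, 31 before that of Dnah7b and 76 before that of Dnah7c. In the Drc1 promoter they mark GTTGCC, a core of the X-box bound by RFX factors, on the opposite strand. All distances here and below are from the RefSeq starts, and annotations differ on these. Counted from the RefSeq start, the first GENCODE M21 coding transcript in the window began at -115 for Dnah7b, 23 for Dnah7a and -5 for Drc1. No GENCODE M21 coding transcript was found to begin in the Dnah7c window.

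Dnah7a, chr1:53706735-53707034, minus strand: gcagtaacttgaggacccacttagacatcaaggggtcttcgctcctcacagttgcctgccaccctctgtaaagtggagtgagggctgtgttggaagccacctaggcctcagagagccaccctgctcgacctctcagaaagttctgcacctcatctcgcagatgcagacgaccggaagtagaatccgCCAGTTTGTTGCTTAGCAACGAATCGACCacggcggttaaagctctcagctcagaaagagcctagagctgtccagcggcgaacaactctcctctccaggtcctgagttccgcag
Dnah7b, chr1:46066603-46066902, plus strand: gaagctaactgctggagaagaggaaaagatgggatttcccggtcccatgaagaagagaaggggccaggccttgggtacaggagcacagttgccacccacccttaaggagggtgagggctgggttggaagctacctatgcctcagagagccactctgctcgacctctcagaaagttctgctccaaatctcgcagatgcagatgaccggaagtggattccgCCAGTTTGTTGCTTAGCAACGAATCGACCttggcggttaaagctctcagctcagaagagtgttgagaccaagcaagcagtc
Dnah7c, chr1:46425268-46425567, plus strand: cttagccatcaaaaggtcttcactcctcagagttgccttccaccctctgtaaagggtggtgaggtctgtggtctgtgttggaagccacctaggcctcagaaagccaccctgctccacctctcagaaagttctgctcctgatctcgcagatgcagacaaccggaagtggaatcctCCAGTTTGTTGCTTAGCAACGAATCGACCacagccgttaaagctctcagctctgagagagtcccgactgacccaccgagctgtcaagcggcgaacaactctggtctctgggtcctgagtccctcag
Drc1, chr5:30281143-30281442, plus strand: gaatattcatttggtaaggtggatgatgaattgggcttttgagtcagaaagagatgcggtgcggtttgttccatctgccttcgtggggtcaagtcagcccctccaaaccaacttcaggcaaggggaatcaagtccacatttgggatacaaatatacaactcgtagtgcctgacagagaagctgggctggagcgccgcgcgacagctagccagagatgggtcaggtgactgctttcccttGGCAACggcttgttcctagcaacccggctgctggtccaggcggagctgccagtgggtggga

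Aligned end to end, the Dnah7a promoter was identical to that of Dnah7c in 79.0% of aligned columns and to that of Dnah7b in 67.1%, and Dnah7b and Dnah7c matched in 57.0%. On either strand, GTTGCC stood 200 bases before the start in Dnah7a, 163 in Dnah7b, 219 in Dnah7c and 11 in Drc1, and was in 12.5% of all 32851 promoters. The other 4 members did not have these letters in the window. The search took these exact letters only, and other forms of the X-box were not looked for. The near form GTTGCT, on the opposite strand AGCAAC, stands inside the run shared by the Dnah7 promoters. It is also in the Drc1, Drc3 and Dnah2 windows. The letters TTCNNNGAA, to which STAT5 and other STAT factors can bind, were found in the Drc7 promoter only, 38 bases before its start, and in 8.30% of all promoters. GTAAACA, a forkhead core that Foxj1 can bind, was in none of the 8 windows and in 3.65% of all promoters. The motifs do not overlap one another in these windows.

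Values in the text are normalised read counts, recovered from the deposited log2 values and corrected for library size, unless another scale is named. Dnah7a had 2199, 1966, 2302 and 1709 normalised reads in the IL-2 libraries, against 171, 82.4, 66.8 and 94.0 in the control libraries. The lowest IL-2 library lay far above the highest control library. The means were 2044 ± 264 with IL-2 and 104 ± 46.2 in controls (SD, n = 4 each), a ratio of 19.8. On the deposited log2 scale, which is compressed at low reads, Dnah7a averaged 11.45 ± 0.14 with IL-2 and 9.39 ± 0.15 in controls, a difference of 2.06.

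Drc1 had 802, 907, 983 and 977 normalised reads in the IL-2 libraries, against 38.1, 27.6, 38.7 and 36.7 in the control libraries. The groups were again far apart, and every control library held a low but countable number of reads. The means were 917 ± 84.1 with IL-2 and 35.3 ± 5.20 in controls, a ratio of 26.0, and the difference on the deposited scale was 1.57. By the ratio of group means of normalised reads, Drc1 was number 22 and Dnah7a number 29 of 10777 genes with at least 10 normalised reads in at least 4 libraries. Among those genes, 13.0% had every IL-2 library above every control library. Of the members, 2 did, Dnah7a and Drc1, and since the members were chosen by this comparison nothing is read from that count.

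Dnah8 had 2184, 2236, 1478 and 2095 normalised reads in the IL-2 libraries, against 1807, 2140, 1783 and 2159 in the control libraries. Its groups overlapped, and the lowest library of all was IL-2 library 43. The means were 1998 ± 351 with IL-2 and 1972 ± 205 in controls, a ratio of 1.01. The difference between these means was smaller than either SD.

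Drc3 had 55.0, 24.9, 30.0 and 25.3 normalised reads in the IL-2 libraries, against 41.5, 44.1, 17.7 and 79.8 in the control libraries. The lowest and the highest library were both controls, so the groups overlapped. The means were 33.8 ± 14.3 with IL-2 and 45.8 ± 25.6 in controls, a ratio of 0.738.

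The other 4 members were at or near 0. Dnah7c was listed at 0.948, 0, 10.4 and 3.06 normalised reads in the IL-2 libraries, against 0 in each of the 4 control libraries. Dnah2 had 3.79 normalised reads in IL-2 library 41 and 0 in the other 7 libraries. Dnah7b and Drc7 were listed at 0 in all 8 libraries. A listed 0 allows up to 3 reads, or 2.75 to 3.48 normalised reads per IL-2 library and 2.73 to 3.36 per control library, counting error only. In all, 4 members had reads in all 8 libraries, 2 in some and 2 in none, and 3 passed the filter of the test on deposited values (Dnah7a, Dnah8 and Drc1).

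**Figure D1:**
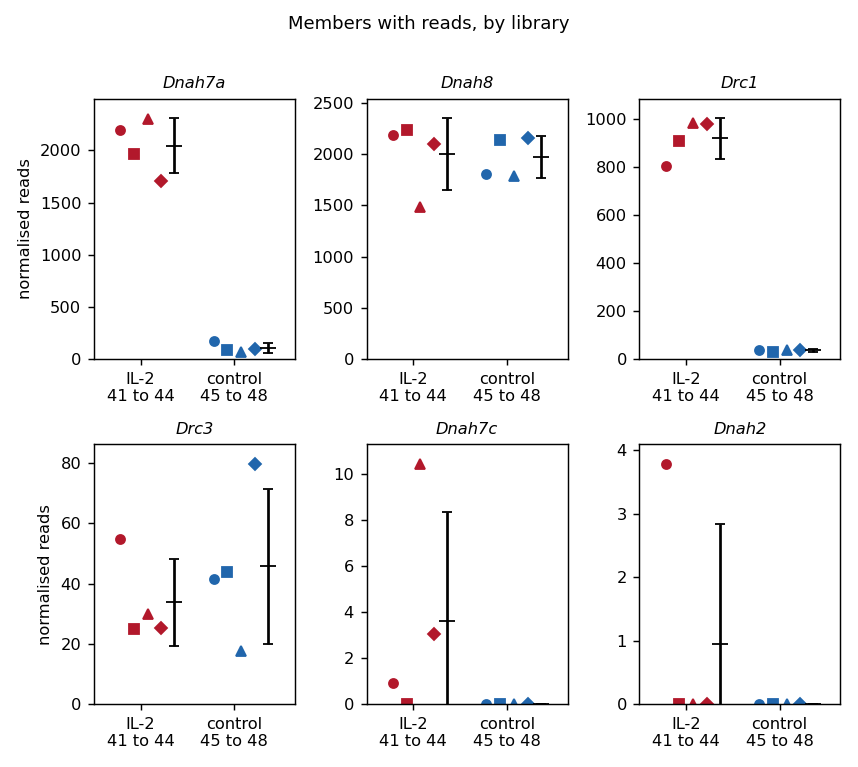
Normalised reads of the 6 members with any reads, each point 1 library (IL-2 libraries 41 to 44 left, control libraries 45 to 48 right), with bars for the mean and SD of each group and an axis of its own for each gene. Dnah7a and Drc1 stood apart between the groups, at means of 2044 and 917 with IL-2 and 104 and 35.3 in controls, Dnah8 and Drc3 overlapped, and Dnah7c and Dnah2 held at most 10.4 reads.

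Dnah7a, Dnah7b and Dnah7c are near copies, and the authors' tool splits reads that match several transcripts by estimation. In GENCODE transcripts of an older build, 45.7% of the 31-base words of Dnah7a were also in Dnah7b and 45.3% in Dnah7c, and 56.5% were shared with some other gene. The summed reads of the 3 genes averaged 2048 ± 266 with IL-2 and 104 ± 46.2 in controls, a ratio of 19.8, so the split between the copies does not enter that value. Dnah7a held at least 99.5% of the sum in each library. None of the 31-base words of Dnah8, Drc1, Dnah2 or Drc7 were shared with another gene, and 0.166% of those of Drc3 were.

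Levels of different genes were compared per kilobase of the longest coding transcript. With IL-2, Drc1 was highest at 371 normalised reads per kb, followed by Dnah7a at 167 ± 21.6, Dnah8 at 120 ± 21.1 and Drc3 at 13.9. In controls the order was Dnah8 at 118, Drc3 at 18.8 ± 10.5, Drc1 at 14.3 and Dnah7a at 8.45 ± 3.77 per kb. The spreads of Drc3 and Drc1 overlapped in controls, and so did those of Drc3 and Dnah7a. Set against 19256 genes with a transcript length, Drc1 was at percentile 95.3 with IL-2 and 54.6 in controls, Dnah7a at 88.0 with IL-2 and 51.1 in controls, and Dnah8 at 83.3 in both. Within a library, Drc1 was 1.81 to 2.83 times as high per kb as Dnah7a with IL-2 and 1.11 to 2.87 times in controls, ranges that overlapped. Dnah7a was 1.11 to 2.12 times as high per kb as Dnah8 with IL-2 and 0.0511 to 0.129 times in controls.

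**Figure D2:**
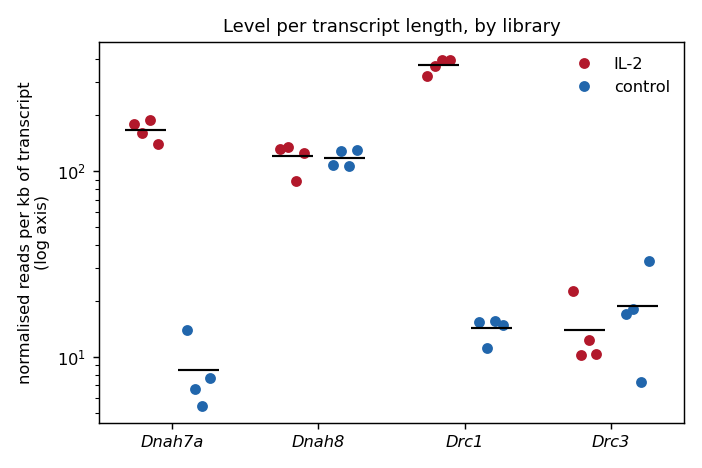
Normalised reads per kb of the longest coding transcript on a log axis, for the 4 members with reads in every library. Each point is 1 library, IL-2 left and control right within each gene, and the line is the group mean. Drc1 and Dnah7a lay at 371 and 167 per kb with IL-2 and at 14.3 and 8.45 in controls, near Drc3, while Dnah8 lay at 120 with IL-2 and 118 in controls.

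The spread among libraries differed between the genes. For Dnah7a the coefficient of variation was 12.9% with IL-2 and 44.6% in controls, against 2.23% with IL-2 and 10.3% in controls from counting error alone, and control library 45 held the highest control value. For Drc1 it was 9.17% with IL-2, against 3.32% from counting, and 14.8% in controls, against 16.9% from counting, so its control libraries varied no more than counting error would give. The library highest for both genes was IL-2 library 43, and the lowest of the group was library 44 for Dnah7a and library 41 for Drc1.

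The 5 genes nearest in profile over the 8 libraries were found for Dnah7a and for Drc1. Likeness was the root mean square difference between centred log2(normalised reads + 5) values over the 8 libraries among the 5260 other genes that passed the filter on deposited values, and a small value means a like profile. That filter kept 10 other motile cilium genes and left out Ak7 and Spef2, described below, so few ciliary genes could be ranked. For Dnah7a the nearest were Jaml at 0.36, Drc1 at 0.38, Gzmb at 0.40, Syk at 0.42 and Lama5 at 0.42. For Drc1 they were Gzmb at 0.16, Syk at 0.21, Dnah7a at 0.38, Lama5 at 0.54 and Jaml at 0.56. The difference between the groups makes up most of these profiles, so the lists hold genes with a difference of like size. Dnah7a and Drc1 were chosen for that difference, so nothing is read from their nearness to each other. Of the genes listed, only Gzmb reached the filter of 206 normalised reads in its control libraries, and the others passed through their IL-2 libraries only. Gzmb encodes the cytotoxic protease granzyme B, Syk a kinase that acts below immune receptors, Jaml an adhesion molecule of leukocytes and Lama5 a laminin chain. The mean of Gzmb was 9083 ± 623 with IL-2 and 429 ± 91.6 in controls, a ratio of 21.2. The ratio was 24.5 for Syk, 23.0 for Jaml and 25.4 for Lama5.

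Other genes of the motile cilium mostly had few reads in these cells. Of 160 such genes other than the members, drawn up by their part in the axoneme or its control, 155 were in the table, 57 were at 0 in all 8 libraries and 109 averaged under 10 normalised reads. On the deposited values, limma tested 10 of them at a Benjamini-Hochberg adjusted p of 0.05 over 5261 genes: 2 rose (Tubb4b and Dnaaf5) and 1 fell (Myb). Over all genes 16.8% rose and 14.6% fell. Because that test left out genes with few reads, limma was also run on log2(normalised reads + 5) for genes with at least 10 normalised reads in at least 4 libraries. There 46 of the motile cilium genes were tested, 4 rose (8.70%) and 1 fell (2.17%), against 10.9% and 9.07% of all 10777 genes tested. The median difference of the 46 was 0.18 on that log2 scale and that of all genes -0.01. Of the 46, 10 were under an unadjusted p of 0.05 in limma, as were 3477 of all 10777 genes. The summed reads of all 155 overlapped, at 6845 to 7579 per IL-2 library and 6879 to 7100 per control library.

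**Figure D3:**
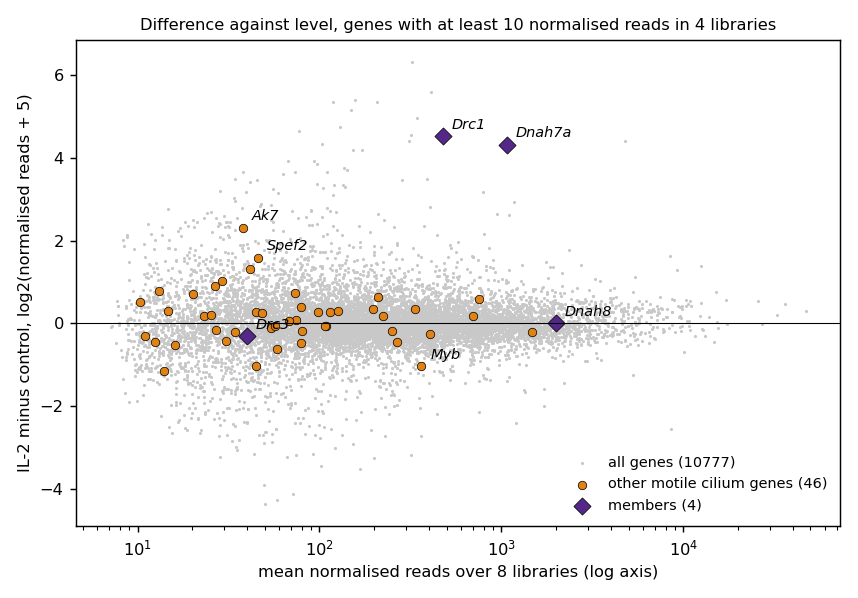
The difference between IL-2 and control means of log2(normalised reads + 5) against the mean normalised reads over 8 libraries (log axis), for 10777 genes in grey, the 46 other motile cilium genes tested in orange and 4 members as purple diamonds. Drc1 and Dnah7a lie near the top of the cloud, Dnah8 and Drc3 near 0, and of the orange points Ak7 at 2.31 and Spef2 at 1.59 lie highest.

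Among the other axonemal dynein heavy chains, 11 genes, 5 were at 0 in every library and 2 had enough reads to test. Dnah17, a sperm outer-arm chain, had 142, 126, 136 and 97.8 normalised reads in the IL-2 libraries, against 105, 118, 75.2 and 113 in the control libraries. The groups overlapped, and the difference did not pass (0.28 on the log2 reads scale, limma adjusted p = 0.42). Dnhd1, a dynein heavy chain domain protein of sperm, averaged 56.3 ± 25.9 with IL-2 and 26.9 ± 31.4 in controls (difference 1.32, limma adjusted p = 0.122). Control library 45 alone held 73.4 reads of Dnhd1, and without that library the difference was 1.90 (adjusted p = 0.0117). Of these 2 genes, 1 was under an unadjusted p of 0.05 in limma, as were 3477 of all 10777 genes on that scale. Of the intermediate, light and docking chains, 18 in the table, 4 were tested, 0 passed and 0 were under an unadjusted p of 0.05 in limma. Dnai4 averaged 51.4 ± 33.6 with IL-2 and 65.8 ± 32.2 in controls, and Dnal4 averaged 25.6 ± 9.08 with IL-2 and 28.5 ± 6.47 in controls.

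The remaining subunits of the dynein regulatory complex and its molecular ruler gave no call. Of 11 in the table, 4 were at 0 in every library, 3 were tested on the reads scale, 0 passed and 0 were under an unadjusted p of 0.05 in limma. Gas8, the DRC4 subunit that builds the base plate of the complex, had 102, 63.7, 86.6 and 36.9 normalised reads in the IL-2 libraries, against 59.8, 152, 22.2 and 74.0 in the control libraries. Its groups overlapped (difference 0.10, limma adjusted p = 0.922). Efcab2, the DRC8 subunit, averaged 55.2 ± 17.8 with IL-2 and 58.5 ± 18.8 in controls.

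Radial spokes and the central pair apparatus gave 2 genes that rose, Ak7 and Spef2, both named after their values were seen. Their reads were too few for the filter of the test on deposited values, so the reads scale is given, and both also rose on the deposited values without a filter. Ak7, an adenylate kinase of motile cilia, had 41.8, 69.9, 78.8 and 76.3 normalised reads in the IL-2 libraries, against 6.35, 11.0, 13.6 and 6.69 in the control libraries. No library of one group reached the other, and the difference was 2.31 ± 0.35 (SE, log2 reads scale, limma adjusted p = 0.000627). Spef2, a central pair protein needed for sperm tails, had 65.1, 64.9, 66.4 and 80.1 in the IL-2 libraries, against 18.2, 7.31, 22.9 and 40.9 in the control libraries. Its groups did not overlap either, and the difference was 1.59 ± 0.39 (SE, limma adjusted p = 0.012). Of all genes with at least 10 normalised reads in at least 4 libraries, 13.0% had every IL-2 library above every control library. Of 33 spoke and central pair genes in the table, 11 were at 0 throughout and 10 were tested on that scale. The spoke proteins Rsph3b (140 ± 30.9 with IL-2, 114 ± 27.1 in controls) and Rsph3a (88.3 ± 23.9 with IL-2, 70.1 ± 39.7 in controls) did not pass. The summed reads of the list were 548 to 633 per IL-2 library and 426 to 461 per control library, without overlap. Their means were 580 with IL-2 and 448 in controls, a ratio of 1.30. Ak7 (66.7 with IL-2, 9.41 in controls) and Spef2 (69.1 with IL-2, 22.3 in controls) are part of that sum. The summed reads of all genes were also higher in every IL-2 library, at a ratio of 1.03.

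Of the microtubule inner proteins and other axonemal proteins, 42 in the table, 18 were at 0 throughout, 8 were tested on the reads scale, 0 passed and 0 were under an unadjusted p of 0.05 in limma. Mns1, a spacer inside the doublets, averaged 103 ± 17.5 with IL-2 and 112 ± 37.1 in controls, and Cfap20 averaged 74.5 ± 31.3 with IL-2 and 86.2 ± 32.9 in controls. Among the 19 assembly factors, cytoplasmic proteins that fold and preassemble the dynein arms, 3 were tested on the deposited values and Dnaaf5 rose. Dnaaf5 had 214, 264, 228 and 327 normalised reads in the IL-2 libraries, against 129, 187, 169 and 165 in the control libraries, with every IL-2 library above every control library (deposited log2 difference 0.22 ± 0.06 SE, limma adjusted p = 0.0195). Dnaaf5 passed the filter of 206 normalised reads through its IL-2 libraries only, and it also rose on the reads scale (limma adjusted p = 0.0233). On the deposited values its limma adjusted p was 0.0532 without IL-2 library 44 and 0.0559 without control library 45. The general chaperone ATPase Ruvbl1 averaged 380 ± 66.4 with IL-2 and 294 ± 37.6 in controls (adjusted p = 0.0973), and it passed without IL-2 library 44 (adjusted p = 0.0447). Dnaaf9 averaged 237 ± 39.4 with IL-2 and 212 ± 64.2 in controls. The summed reads of the assembly factors were 1446 to 1724 per IL-2 library and 1159 to 1262 per control library, without overlap. Their ratio was 1.28, beside 1.03 for the summed reads of all genes, which did not overlap either.

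The regulators of motile ciliogenesis gave no common direction. Foxj1, the master regulator of the motile cilium, was listed at 0 in all 8 libraries, and Mcidas, which starts multiciliation, at no more than 1.16 normalised reads. Rfx3 had 248, 140, 236 and 327 normalised reads in the IL-2 libraries, against 253, 282, 223 and 289 in the control libraries, with no separation (limma adjusted p = 0.599). Rfx2 had 10.5, 29.4, 38.2 and 75.3 in the IL-2 libraries, against 21.8, 11.9, 15.7 and 11.2 in the control libraries, and did not pass on the reads scale (difference 0.90, limma adjusted p = 0.218). Tubb4b, a tubulin used in cilia and in dividing cells alike, was counted in this list though it is not a regulator. It rose to 903 ± 89.2 with IL-2, against 600.0 ± 79.1 in controls (deposited difference 0.33, limma adjusted p = 0.00181). Myb, a transcription factor of progenitor and immune cells that also acts in multiciliated cells, fell to 235 ± 25.2 with IL-2, against 491 ± 85.6 in controls (deposited difference -0.44, limma adjusted p = 0.000338). Rfx7 and Rfx5 did not pass.

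**Figure D4:**
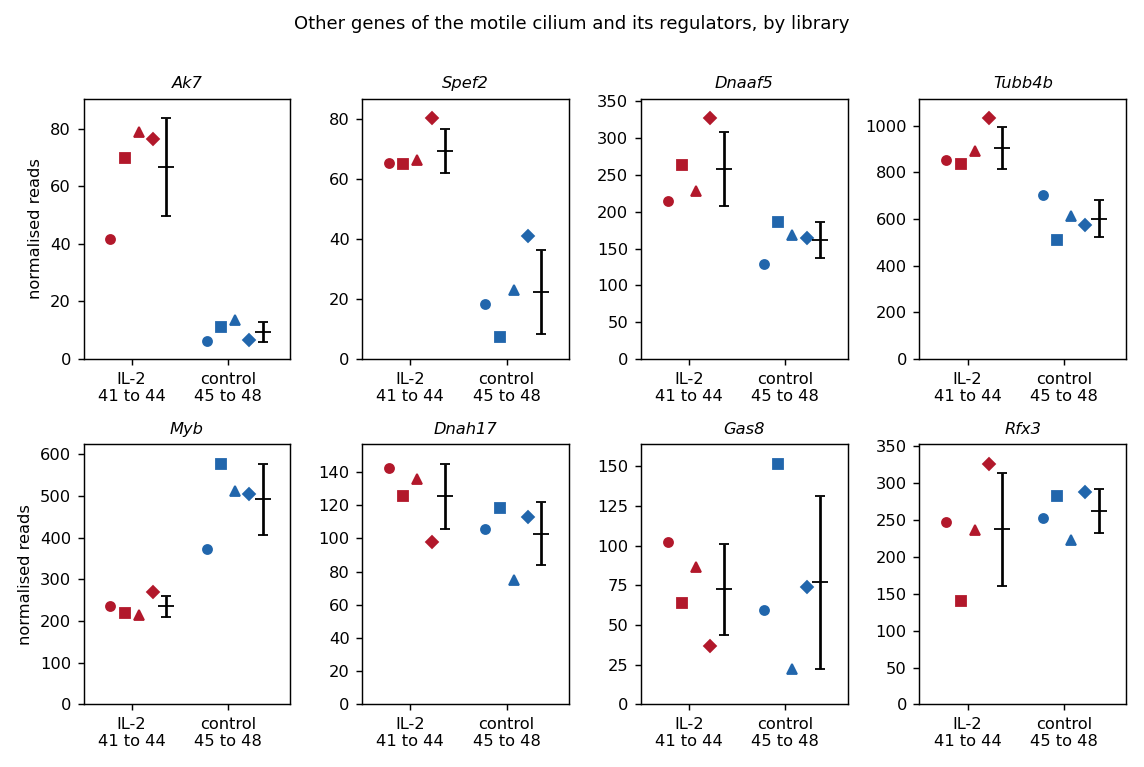
Normalised reads of 8 genes of the motile cilium other than the members, each point 1 library (IL-2 left, control right), with mean and SD and an axis of its own for each gene. Ak7, Spef2, Dnaaf5 and Tubb4b lay higher in every IL-2 library, Myb lay lower, and Dnah17, Gas8 and Rfx3 overlapped.

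Genes that build any cilium, motile or primary, gave few calls. Of 38 genes of intraflagellar transport and the BBSome, 4 were tested on the deposited values (Kif3b, Ift80, Ift140 and Cluap1) and 0 passed limma's adjusted threshold. Of these 4, 1 was under an unadjusted p of 0.05 in limma, as were 2189 of all 5261 genes tested. On the reads scale 31 were tested, none rose and 2 fell (6.45%), against 10.9% and 9.07% of all genes. The 2 were Bbs2 and Ift74, named after their values were seen. Bbs2, a BBSome subunit, averaged 16.5 ± 8.01 with IL-2 and 54.1 ± 4.84 in controls (difference -1.54, limma adjusted p = 0.00963). Ift74, a subunit of the transport train, averaged 25.1 ± 16.2 with IL-2 and 60.3 ± 6.50 in controls (difference -1.29, limma adjusted p = 0.0432), and lost that call in 7 of the 8 fits that left out a library. The summed reads of the 38 genes were 3427 to 3723 per IL-2 library and 3854 to 4214 per control library, without overlap.

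Cytoplasmic dynein, the related motor that carries cargo in every cell, was read well. Its heavy chain Dync1h1 averaged 6631 ± 680 with IL-2 and 6991 ± 348 in controls and did not pass (limma adjusted p = 0.472), though it fell after quantile normalization (adjusted p = 0.0363). Dync2h1, the motor heavy chain of intraflagellar transport, averaged 334 ± 70.5 with IL-2 and 399 ± 83.3 in controls (adjusted p = 0.335). Of 38 genes of cytoplasmic dynein and its regulators, 22 were tested on the deposited values, 3 rose (13.6%) and 2 fell (9.09%). Over all genes 16.8% rose and 14.6% fell in the same fit, so neither share was above that of all genes. The risers were the centrosomal anchor Nin (5364 ± 636 with IL-2, 2963 ± 405 in controls; limma adjusted p = 8.15e-05), the cargo adaptor Bicd2 (981 ± 86.8 with IL-2, 610.3 ± 59.7 in controls, adjusted p = 0.000338) and the dynactin subunit Dctn2 (403 ± 36.1 with IL-2, 288 ± 37.6 in controls, adjusted p = 0.0151). The light intermediate chain Dync1li2 (264 ± 45.8 with IL-2, 389 ± 24.0 in controls, adjusted p = 0.00974) and the adaptor Bicdl1 (198 ± 27.3 with IL-2, 281 ± 31.5 in controls, adjusted p = 0.0295) fell. Bicdl1 lost that call in 4 of the 8 fits that left out a library, without a filter (adjusted p = 0.0524) and with the Ddx3y covariate (adjusted p = 0.051). The summed reads of the 38 genes were 22226 to 23787 per IL-2 library and 19854 to 21053 per control library, without overlap. Their ratio was 1.11, beside 1.03 for the summed reads of all genes, which did not overlap either.

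The genes nearest to Dnah7a and Drc1 in RefSeq gene order were taken among those with reads in at least 1 library. Genes without reads in between were passed over. None of the nearest genes tested rose. Stk17b, a kinase gene and the nearest with reads on one side of Dnah7a, had 1835, 1642, 1696 and 1771 normalised reads in the IL-2 libraries. The control libraries had 2118, 2054, 2451 and 2390. Every IL-2 library lay below every control library, and the gene fell (deposited difference -0.28, limma adjusted p = 0.00347). On the other side Asnsd1 averaged 291 ± 48.2 with IL-2 and 228 ± 51.8 in controls and did not pass (adjusted p = 0.179). Asdurf, beyond Asnsd1, and Hecw2, beyond Stk17b, held few reads. Nearest to Drc1 on one side, Selenoi, which makes phosphatidylethanolamine, averaged 252 ± 38.5 with IL-2 and 188 ± 21.9 in controls. It did not pass in limma (adjusted p = 0.0845), and it passed without IL-2 library 44 (adjusted p = 0.0371). Adgrf3, an adhesion receptor gene on the far side of Selenoi, was listed at 2.85, 7.35, 2.32 and 10.2 in the IL-2 libraries, against 0 in every control library, at or near the limit of detection. Otof and Kcnk3, on the other side of Drc1, were read at no more than 5.71. Around Dnah7b and Dnah7c, Slc40a1, the iron exporter, was at 0 with IL-2 and at 51.8, 7.34, 28.2 and 21.2 in the control libraries, and Wdr75 and Slc39a10 did not pass.

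**Figure D5:**
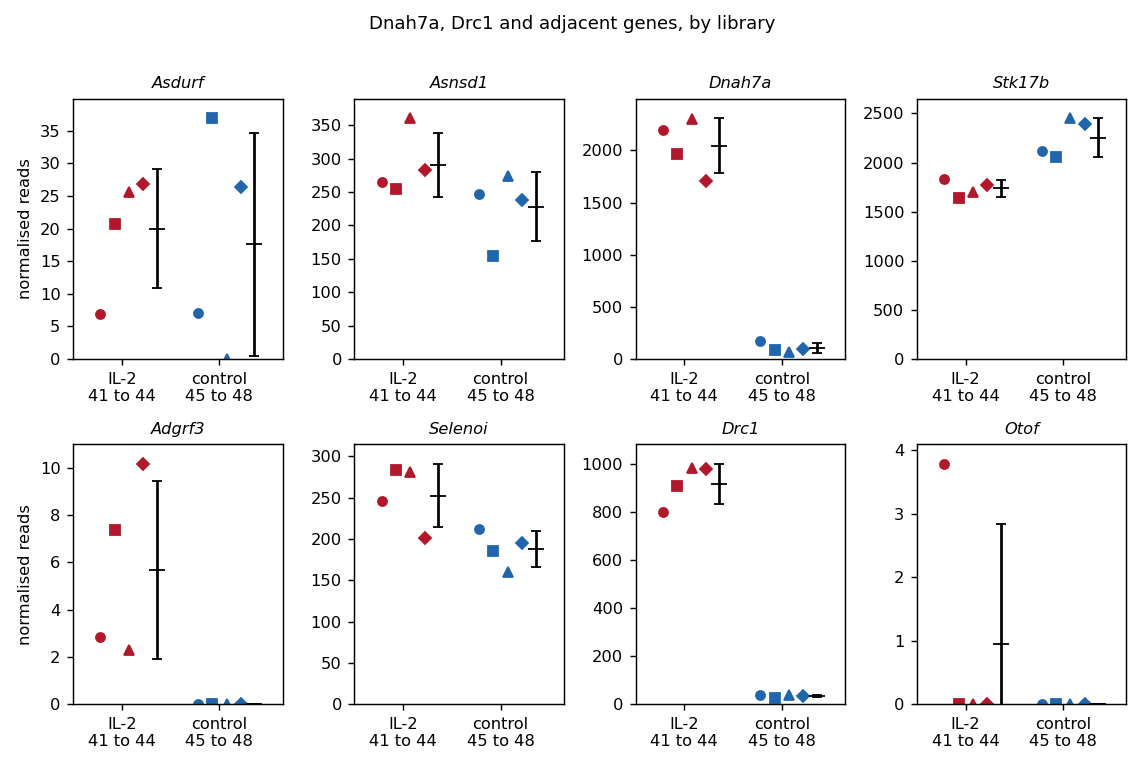
Normalised reads of Dnah7a (upper row) and Drc1 (lower row) with the nearest genes in gene order that had any reads. Each point is 1 library (IL-2 left, control right), with mean and SD and an axis of its own for each gene. Stk17b lay lower in every IL-2 library, Asdurf, Asnsd1 and Selenoi overlapped between the groups, and Adgrf3 and Otof held at most 10.2 reads.

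The sort and the libraries bear on these values as follows. Recovered totals were 4954319 to 6394943 reads per library. All 10 markers of Tregs and T cells were read, with Foxp3 at 1643 to 2235 in the IL-2 libraries and 1123 to 1799 in the control libraries. Of these 10, 1 rose and 2 fell in limma: Il2ra rose to 18107 ± 1601 with IL-2, against 6935 ± 781 in controls (adjusted p = 3.11e-07), Cd4 fell to 2523 ± 354, against 4136 ± 299.6 in controls (adjusted p = 0.000149), and Cd28 fell (adjusted p = 0.00829). Of 10 markers of multiciliated and epithelial cells, Foxj1, Ccdc113 and Sntn were at 0 in every library, and 6 with these included never reached 10 reads. The list summed to 286 to 436 per IL-2 library and 87.0 to 133 per control library, most of it Epcam, an epithelial adhesion protein also found on some T cells. Epcam rose to 342 ± 73.5 with IL-2, against 91.4 ± 19.2 in controls (limma adjusted p = 6.02e-05), and its part in the results was not tested. Of 8 germ cell markers 4 were at 0 throughout, and the list summed to 16.3 to 33.5 per IL-2 library and 14.6 to 33.9 per control library. B cell markers summed to 121 to 241 with IL-2 and 487 to 606 in controls, myeloid markers to 1000 to 1251 with IL-2 and 1845 to 2080 in controls, and NK and CD8 T cell markers to 58.7 to 125 with IL-2 and 125 to 239 in controls. Their part in the results was not tested. The Y-linked transcript Ddx3y was at 0 in IL-2 libraries 41 and 42 and control library 45, and at 216 to 460 in the other 5 libraries. It was thus both absent and present within each group, and the labels leave out the sex of the donors. Among the 3 libraries without it the ratio of IL-2 to control was 12.2 for Dnah7a and 22.4 for Drc1, and among the 5 with it 24.7 for Dnah7a and 28.5 for Drc1. In bulk RNA, more cells that express Dnah7a and Drc1 and more of their RNA per cell cannot be told apart.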

How the data were processed

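RNA of flow-sorted mouse spleen Tregs was sequenced as 8 libraries, 4 IL-2 and 4 control, made with a low-input stranded total RNA kit, per the labels' protocols. The authors deposited 1 table of variance-stabilised log2 values. The submitters' processing notes name Salmon, DESeq2 and the build GRCm39 with no settings, and no source used here states whether quantification used strand.

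The lowest value, 8.69, stands for 0 reads. Normalised reads were recovered by inverting the parametric variance-stabilising formula; the 5 commonest low values of each library, 40 in all, came out whole within 0.01 of a read. One unit above the lowest is 206 normalised reads, so deposited differences understate folds of low genes. Totals of 4954319 to 6394943 reads set the counting error.

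The 5261 genes at least 1 above the lowest value in at least 4 libraries were fitted with limma (trend, IL-2 minus control), with Benjamini-Hochberg adjustment over all of them and a threshold of 0.05. The same was run on log2(normalised reads + 5) for 10777 genes with at least 10 normalised reads in at least 4 libraries. Folds are ratios of group means. The limma step was tested on simulated data. Alternatives were no filter or a stricter filter of 2 units, quantile normalization, median centring, limma without trend, robust or with array weights, a pseudocount of 1, rescaling to the recovered library total, ratios of medians and leaving out each library. A Ddx3y covariate, and the reads-scale fit in Ddx3y-positive libraries only or without each library in turn, were added after seeing the data.

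The members and lists were chosen with earlier results of these data known. Named genes are the members, for each list up to 4 genes by adjusted p (the 2 with most reads where under 2 were tested), and 10 preset genes. The 5 most like Dnah7a and Drc1 were added, with the 2 nearest genes with any reads on each side of Dnah7a, Dnah7b, Dnah7c and Drc1. Others are said to be named after their values were seen, and Epcam was too. Promoters and gene order are from RefSeq GRCm38.p6, and transcript lengths and shared words of 31 bases from GENCODE M21, an older build than the authors'. Software was matplotlib 3.10.9, pandas 2.3.3, numpy 2.4.6 and Python 3.11.15, with limma 3.58.1 in R 4.3.3.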

Additional observations from a re-analysis of the deposited data

Results flagged for a closer look

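In each group of 4 libraries, the gap between the most extreme library and its nearest neighbour was compared with the range of the group (Dixon's test at 95%). It singled out 12 of 117 groups, where chance gives about 1 in 20, and several rest on 1 library with a few reads beside others at 0.

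Of the members, Drc3 had 55.0 normalised reads in IL-2 library 41 and 24.9 to 30.0 in the other IL-2 libraries, and Dnah2 had 3.79 in that library and 0 in the others. Spef2 had 80.1 in IL-2 library 44 and 64.9 to 66.4 in the others. Dnhd1 had 95.0 in IL-2 library 43 and 40.5 to 47.0 in the others. Among controls, library 45 held 38.1 reads of Dnal4 (24.1 to 26.1 in the others) and 646 of Ift80 (349 to 362 in the others). Mcidas was listed at 1.16 in IL-2 library 43 and at 0.909 in control library 45, and at 0 elsewhere. Of the neighbours, Hecw2 had 8.77 reads in control library 47, Tmeff2 0.948 and Otof 3.79 in IL-2 library 41, and Kcnk3 1.12 in control library 48.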

How the results depend on the processing

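The ratios of Dnah7a and Drc1, the summed Dnah7 reads, and the values of Dnah8 and Drc3 moved by less than the spread between libraries under every alternative run on them. With 1 library left out the ratios ranged from 17.7 to 25.2 for Dnah7a and 24.2 to 27.1 for Drc1. They ranged from 0.973 to 1.10 for Dnah8 and 0.584 to 0.982 for Drc3. The split by Ddx3y, with fewer libraries, moved the Dnah7a ratio further, to 12.2 without Ddx3y and 24.7 with it. Counts of called genes moved more. Over all genes the filter at 2 above the lowest value tested 1519 genes and called 380 higher and 357 lower. Among motile cilium genes it tested 1 and called 0 higher and 0 lower, with 0 regulators in either direction, and among cytoplasmic dynein genes 1 higher and 0 lower. Without a filter 5 motile cilium genes were higher and 2 lower. The higher ones included 2 spoke and central pair genes and 2 genes of the regulator list (Trp73 and the tubulin Tubb4b). The lower ones included 1 assembly factor (Dnaaf11, at 0 in the IL-2 libraries). In the same fit 2 transport genes and 1 cytoplasmic dynein gene were lower. On log2(normalised reads + 5) and on log2(normalised reads + 1) 4 motile cilium genes were higher, 2 of them in spokes and central pair; lower transport genes numbered 2 and 1. The Ddx3y covariate left 1 cytoplasmic dynein gene lower.

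Leaving out 1 library gave 1 to 2 motile cilium genes higher and 1 to 2 lower on the deposited values, 3 to 5 higher and 1 to 2 lower on the reads scale, 0 to 1 assembly factors higher, 1 to 2 regulators lower and 1 to 2 cytoplasmic dynein genes lower. Without IL-2 library 44 the assembly factor called was Ruvbl1 in place of Dnaaf5. Control library 45 decided the first and the assembly factor, and control library 47 the lower motile genes and regulators, where Rfx5 then passed (-0.29, adjusted p = 0.011). For cytoplasmic dynein it was IL-2 libraries 42 and 44 and control libraries 46 and 47, through Bicdl1. The cause was not tested.

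The sign of some differences that passed no test reversed when a library was left out. Their ranges were -0.94 to 0.095 for Dnai4, -0.34 to 0.0067 for Dnal4, -0.35 to 0.49 for Gas8, -0.29 to 0.086 for Efcab2, -0.31 to 0.088 for Mns1, -0.48 to 0.018 for Cfap20, -0.12 to 0.015 for Rfx3, -0.054 to 0.040 for Cd3e and -0.10 to 0.92 for Asdurf. In the Ddx3y-positive libraries only, 2 against 3, signs reversed for Dnal4 (0.22), Gas8 (-0.17), Efcab2 (0.27) and Mns1 (0.21), and the calls of Spef2 (1.64, adjusted p = 0.109), Bbs2 (-1.65, adjusted p = 0.0762) and Ift74 (-0.89, adjusted p = 0.245) were lost with fewer libraries, while Dnhd1 passed (2.15, adjusted p = 0.0409).

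No paired analysis was possible because the groups share no replicate numbers. Depth limits genes averaging under 10 normalised reads, 109 of the 155 motile cilium genes, which the tests mostly left out.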
